A study of Homo sapiens with 8 samples.

Results

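Small nucleolar RNAs (snoRNAs) are short noncoding RNAs that guide chemical modification of other RNAs. The snoRNA genes described here were the 176 genes, of 18417 measured, whose symbols begin with SNORA or SNORD followed by a digit. They were found on probe sets that the array annotation gives a single gene symbol, and the probe set with the highest mean stood for a gene that had several. SNORA genes, which number 61, encode box H/ACA snoRNAs. SNORD genes, which number 115, encode box C/D snoRNAs. A further 82 snoRNA symbols occurred only on probe sets carrying several symbols and were not analysed here.

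Box C/D snoRNAs base-pair with ribosomal RNA in the nucleolus and place the methyltransferase fibrillarin on a chosen ribose, whereas box H/ACA snoRNAs place the pseudouridine synthase dyskerin on a chosen uridine. Most human snoRNAs are not transcribed from promoters of their own. They lie in introns of a host gene and are trimmed out after the host transcript is spliced. Many hosts are genes of ribosomal proteins and translation factors. Others are noncoding genes such as GAS5 and the SNHG genes, whose spliced RNA makes no known protein. Host transcripts of these kinds often begin with a pyrimidine tract (a 5′ terminal oligopyrimidine, or TOP, start), through which mTORC1 signalling is known to control translation and decay of the spliced RNA.

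The study hybridised total RNA to Affymetrix Human Gene 1.0 ST arrays, in 4 groups of 2 arrays. The groups were untreated A2780 (a human ovarian carcinoma cell line), its untreated subline A2780CP20, A2780 given temsirolimus for 24 h, and A2780 given temsirolimus for 48 h. Temsirolimus, an ester of rapamycin, is an mTORC1 inhibitor. All cells grew in RPMI medium with serum, the drug stock was in DMSO, and the control labels state no treatment without saying whether vehicle was added. No dose is given. Whether the replicates were grown as separate cultures is not stated, so the p-values here reflect the spread between the deposited samples only, and that spread may be technical. Each group is a single cell line or subline.

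The arrays labelled 24 h stood apart from the other 6. Over all genes their correlation with arrays of other groups was 0.95 to 0.952, against 0.979 to 0.996 between the remaining groups and 0.991 to 0.997 within a group. Over the snoRNA genes alone the 24 h arrays were less separate, with correlations of 0.98 to 0.986 against 0.977 to 0.995 between the other groups. The 24 h arrays also differed in some cell type markers. The epithelial genes EPCAM (7.74 against 5.57 in untreated A2780, mean log2 values) and KRT18 (10.5 against 7.58) were higher, and the stromal matrix gene DCN (7.83 against 11.6) was lower. In all, 2 of 8 epithelial and ovarian markers rose, and of 7 markers of other cells PTPRC rose and DCN fell. Over all genes 14.9% rose and 15.3% fell. The keratin genes KRT8 (0.19) and KRT19 (0.01) and the fibroblast gene COL1A1 (0.07) were not called. The part of these differences in the snoRNA results below was not tested. Over all genes the 24 h differences from untreated A2780 ran from -7.59 to 7.3, and whether the arrays labelled 24 h hold the same cell line as the others was not tested. In such bulk RNA, a change per cell and a change in the mix of cells cannot be told apart.

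All 176 snoRNA genes were tested, with no filter on dim values. On all 8 arrays 48 of the 61 SNORA genes and 64 of the 115 SNORD genes lay above the lower quartile of all genes. Of the SNORD genes, 46 belong to the imprinted SNORD113, SNORD114, SNORD115 and SNORD116 clusters, which are known for expression in brain and were mostly dim here. Their median level over the arrays was 3.54, 3.90, 2.85 and 5.32 (log2 intensity) for the respective families, and only 7 genes, all SNORD116 copies, had a mean above 6. The other 69 SNORD genes had mean levels from 2.70 to 12.4, with a median of 8.41. The mean levels of the SNORA genes ran from 3.97 to 9.74, with a median of 7.54. A probe set reports any RNA that carries its bases, so mature snoRNA and longer precursor RNA are not separated by these values.

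Of the comparisons with untreated A2780, that of the 24 h arrays gave the most snoRNA calls. There 55 of the 176 genes (31.2%) were called higher and 7 (3.98%) were called lower, where a call is an adjusted p under 0.05 in the limma fit with Benjamini-Hochberg adjustment over all genes. Over all genes, 30.1% were called in this comparison, 14.9% higher and 15.3% lower. Of the SNORD genes, 40 of 115 (34.8%) rose and 4 fell, and of the SNORA genes 15 of 61 (24.6%) rose and 3 fell. The median log2 difference was 0.28 for SNORD genes, 0.08 for SNORA genes and 0.01 for all genes. Both 24 h arrays read above both untreated arrays for 71 SNORD and 27 SNORA genes, which is 55.7% of the snoRNA genes, against 34.1% of all genes. Both read below for 30 snoRNA genes, against 31.9% of all genes. Without the imprinted clusters, 34 of 69 SNORD genes rose, 3 fell, and the median difference was 0.51. The number of calls depended on single arrays. It fell from 62 to 34 (30 higher and 4 lower) without replicate 1 of untreated A2780, to 35 without replicate 1 of the 24 h group and to 36 without replicate 2 of that group.

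The 2 arrays of the 24 h group agreed closely for these genes. The median SNORD gene stood 0.26 and 0.25 above its untreated mean on the 24 h arrays, -0.07 and 0.07 from it on the untreated arrays themselves, and 0.09 and 0.25 above it at 48 h. In A2780CP20 the corresponding values were -0.10 and 0.02. The median SNORA gene stood at 0.08 and 0.12 on the 24 h arrays, -0.02 and 0.02 on the untreated arrays, -0.16 and 0.00 in A2780CP20, and 0.00 and 0.12 at 48 h. For both classes the 24 h arrays lay above the untreated and A2780CP20 arrays, and replicate 2 at 48 h reached the 24 h level. The difference between the classes was not tested.

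**Figure D1:**
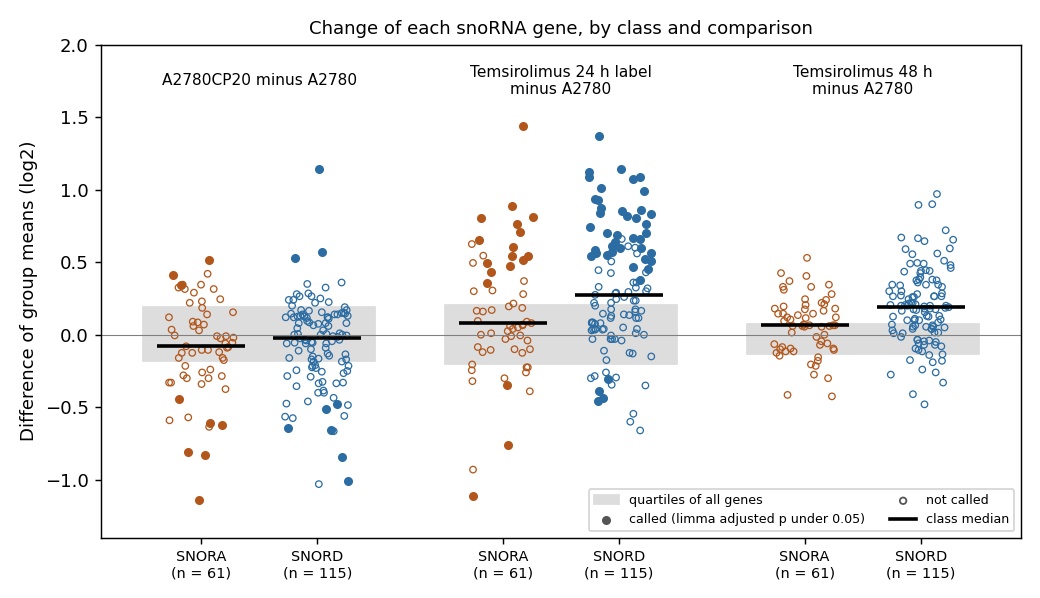
Each point is a snoRNA gene, and the y axis is the difference of group means (log2) from untreated A2780, for A2780CP20, the 24 h label and 48 h. Filled points are called (limma adjusted p under 0.05), bars are class medians and grey bands are the quartiles of all genes. Called points lie mostly above 0 in the 24 h panel (55 of 62) and are absent at 48 h.

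The 24 h rises were unevenly spread over the kinds of gene in which the snoRNAs lie. The enclosing gene was taken as the single RefSeq gene whose span holds the snoRNA, without regard to strand. For comparison, 14.9% of all genes rose and 15.3% fell at 24 h, with a median of 0.01. Of 31 snoRNA genes inside ribosomal protein genes, 17 rose and 0 fell, with a median log2 difference of 0.55. Of 23 inside noncoding genes outside the imprinted clusters, 12 rose and 0 fell, with a median of 0.55. Of 60 inside other protein-coding genes, 16 rose and 5 fell, and the median was 0.09. Of the 46 imprinted-cluster genes, 6 (13%) rose, which is near the share of all genes, and 1 fell, with a median of 0.08. Of the 15 other genes with no single enclosing gene, 3 rose and 1 fell. Some of these 15, SNORA13 among them, lie within several genes and were counted under none of the kinds above. The last member, SNORA7B inside the ribosomal protein pseudogene RPL32P3, rose by 0.54. Both snoRNA classes were raised within ribosomal protein genes, where 7 of 12 SNORA genes (median 0.49) and 10 of 19 SNORD genes (median 0.57) rose. Within noncoding genes, 12 of 19 SNORD genes rose (median 0.61), whereas 0 of 4 SNORA genes were called (median -0.08). Within other protein-coding genes, 11 of 25 SNORD genes rose (median 0.38). There 5 of 35 SNORA genes rose (14.3%, near the share of all genes), with a median of 0.03. These medians kept their sign under quantile normalization and median centring of the arrays, but 4 small ones moved by more than 1.5 times. That of the imprinted clusters was 0.03 and 0.13 under the respective scalings, and that of SNORA genes within other protein-coding genes was 0.06 and 0.08. That of all members within other protein-coding genes was 0.14 under both, and that of the 4 SNORA genes within noncoding genes was -0.07 and -0.03. Median centring gave 16 rises and 2 falls within other protein-coding genes and 7 rises and 0 falls in the imprinted clusters, and under either scaling 1 of the 4 SNORA genes within noncoding genes was called higher.

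**Figure D2:**
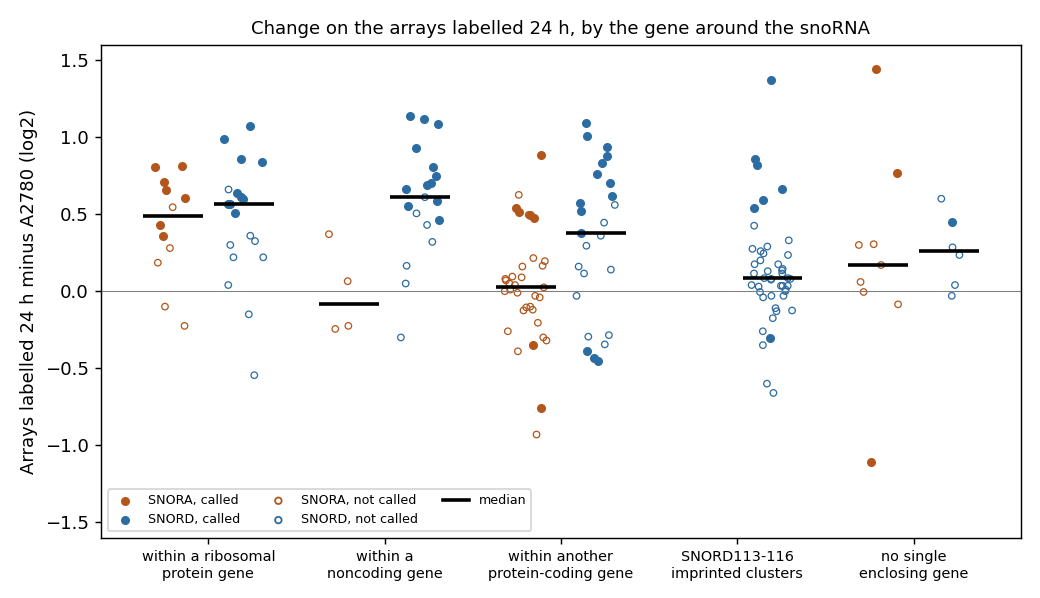
Each point is a snoRNA gene, placed by the gene around it, and the y axis is the difference of the 24 h arrays from untreated A2780 (log2). Filled points are called, and bars are medians for SNORA and SNORD. SNORA7B, the only member within a pseudogene, is not drawn. Within ribosomal protein genes the medians are 0.49 (SNORA) and 0.57 (SNORD), and within other protein-coding genes they are 0.03 and 0.38.

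Outside the imprinted clusters the noncoding gene GAS5 held the most members. It holds 7 of the measured SNORD genes, which are guides for ribosomal RNA methylation. SNORD75 read 9.62 and 9.93 on the untreated A2780 arrays, 10.9 and 10.89 at 24 h, 9.93 and 10.18 at 48 h, and 9.78 and 10.17 in A2780CP20. Its 24 h arrays stood above all 6 others, and the difference from untreated was 1.12 ± 0.16 (SE, 2 arrays a group, limma adjusted p = 8.47e-04), or 2.17-fold. SNORD74 read 10.99 and 11.10 untreated, 11.75 and 11.72 at 24 h, 10.85 and 11.08 at 48 h, and 10.94 and 11.08 in A2780CP20. Here too the 24 h arrays were the highest, and the rise was 0.69 ± 0.11 (adjusted p = 0.00157). SNORD81 read 9.37 and 9.73 untreated and 10.27 and 10.32 at 24 h, a rise of 0.75 ± 0.16 (adjusted p = 0.00712).

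The other GAS5 members behaved alike at 24 h. SNORD77 rose by 0.70, SNORD78 by 0.55 and SNORD79 by 0.47. SNORD44 read 10.85 and 10.96 untreated and 11.45 and 11.37 at 24 h, a difference of 0.51 whose adjusted p was 0.0517, so it was not called. For all 7 members both 24 h arrays lay above both untreated arrays. At 48 h the 7 differences ran from -0.08 to 0.44, with 0 called. For 3 members both 48 h arrays lay above both untreated arrays, against 19.6% of all genes. In A2780CP20 the differences ran from -0.40 to 0.20, with 0 called. There both arrays lay below both A2780 arrays for 3 members and above them for 0, against 27% and 28.3% of all genes. The GAS5 transcript itself had no probe set with a single symbol, so its own level is not analysed here.

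**Figure D3:**
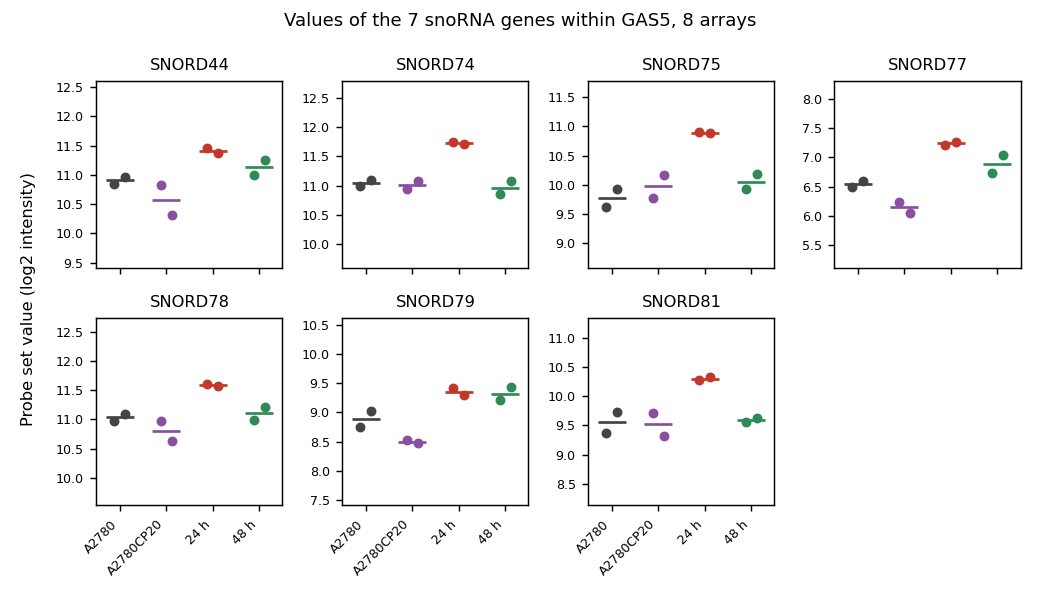
Values of the 7 SNORD genes inside GAS5 on each of the 8 arrays (log2 intensity, y axis, each panel spanning the same range of 3.2) by group (x axis). Dots are arrays and lines are group means. In all 7 panels both 24 h arrays lie above both untreated A2780 arrays, and in the SNORD79 panel the 48 h arrays overlap the 24 h arrays.

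Among the other noncoding hosts, SNORD12C inside ZFAS1 read 8.21 and 8.18 untreated, 9.31 and 9.36 at 24 h, 8.66 and 8.71 at 48 h, and 8.21 and 8.48 in A2780CP20. It rose by 1.14 ± 0.11 at 24 h (adjusted p = 7.84e-05), with the 48 h arrays between the untreated and 24 h arrays. SNORD50B and SNORD50A, both inside SNHG5, rose by 1.09 and 0.67. SNORD30 inside SNHG1 read 10.51 and 10.35 untreated, 11.35 and 11.37 at 24 h, and 10.45 and 10.52 at 48 h. It rose by 0.93 ± 0.11 (adjusted p = 3.22e-04) and its 48 h arrays overlapped the untreated ones. SNORD28, in the same gene, differed by 0.61 at 24 h (adjusted p = 0.0547) and by 0.90 at 48 h (adjusted p = 0.177) and was not called. SNORD49A inside SNHG29 rose by 0.81 and SNORD52 inside SNHG32 by 0.59. In contrast SNORD1A and SNORD1B inside SNHG16, SNORD60 inside SNHG19, SNORD104 inside SNHG25, SNORD7 inside SNHG30 and the 4 SNORA genes inside SNHG8, SNHG11 and SNHG17 were not called.

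Start sequences of some noncoding hosts are shown because part of the raised SNORD genes lie downstream of them and because TOP starts mark this kind of host. Each line gives 30 bases before and 30 bases from the annotated start in RefSeq (GRCh38.p14), 5′ to 3′ on the gene's strand. Capitals mark the unbroken run of C and T letters, of 5 bases or more, that covers the start.
SNHG1 (chr11:62855856-62855915, minus strand): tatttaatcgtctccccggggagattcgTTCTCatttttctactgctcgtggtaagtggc
SNHG5 (chr6:85678704-85678763, minus strand): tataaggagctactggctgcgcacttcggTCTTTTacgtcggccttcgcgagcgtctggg
ZFAS1 (chr20:49278612-49278671, plus strand): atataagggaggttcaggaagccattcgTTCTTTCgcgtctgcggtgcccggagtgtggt
SNHG32 (chr6:31834886-31834945, plus strand): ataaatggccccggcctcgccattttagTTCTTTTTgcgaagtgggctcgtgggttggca
SNHG19 (chr16:2155329-2155388, minus strand): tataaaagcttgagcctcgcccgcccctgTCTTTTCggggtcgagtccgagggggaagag
SNHG8 (chr4:118278732-118278791, plus strand): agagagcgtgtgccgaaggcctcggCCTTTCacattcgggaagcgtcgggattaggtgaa

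Of the 12 noncoding enclosing genes with a start window, 6 carried such a run, and only those are printed. Of the genes without it, SNHG11, SNHG16, SNHG17 and SNHG30 held no member that rose. SNHG1, SNHG5, ZFAS1 and SNHG32 held SNORD genes that rose, while the members inside SNHG19 (SNORD60) and SNHG8 (SNORA24) were not called. The windows of GAS5, where 6 of 7 members rose, and SNHG29, where 1 of 1 rose, held no such run over the annotated start. Runs of C and T letters elsewhere in a window were not counted. Only 1 annotated start per enclosing gene was read, so a run at another start of GAS5 or SNHG29 would be missed. All 11 ribosomal protein enclosing genes with a window carried a run, as did 10 of 40 other protein-coding enclosing genes (25%). Over all 35116 start windows the share was 9.6%. The search was on the gene's strand only. The run is a description of letters and was not tested against the changes.

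Within ribosomal protein genes many snoRNA genes rose, while of the 10 measured genes around them 0 were called higher and 4 lower. Over all genes 14.9% were called higher and 15.3% lower. RPL3, which encodes a protein of the large ribosomal subunit, holds SNORD43, SNORD83A and SNORD83B. SNORD43 read 9.73 and 9.81 untreated, 10.87 and 10.82 at 24 h, 9.87 and 10.07 at 48 h, and 9.98 and 9.71 in A2780CP20. It rose by 1.08 ± 0.12 at 24 h (adjusted p = 2.00e-04), and its 24 h arrays lay above all 6 others. SNORD83A rose by 0.99 and SNORD83B differed by 0.30 (adjusted p = 0.0600). RPL3 itself read 13.58 and 13.63 untreated, 13.21 and 13.21 at 24 h, and 13.59 and 13.58 at 48 h, a fall of 0.40 at 24 h (-0.40 ± 0.08, adjusted p = 0.00758).

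RPL23A, of the same subunit, gave a similar pair of directions. SNORD42A read 6.73 and 6.93 untreated and 7.71 and 7.66 at 24 h, a rise of 0.86, and at 48 h its arrays were split at 7.05 and 7.80. SNORD4A and SNORD4B each rose by 0.57. RPL23A itself read 12.74 and 12.77 untreated and 12.20 and 12.24 at 24 h, a difference of -0.54 (adjusted p = 0.0127). In RPL27A (-0.68, adjusted p = 0.00415) SNORA3B rose by 0.61 and SNORA3A differed by 0.28 without a call. In RPL7A (-0.41, adjusted p = 0.0195) SNORD36B rose by 0.61.

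Other ribosomal protein genes were not called themselves. SNORA52 inside RPLP2, a stalk protein gene, read 8.66 and 8.55 untreated, 9.44 and 9.40 at 24 h, and 8.40 and 8.56 at 48 h. It rose by 0.82 ± 0.11 (adjusted p = 5.55e-04), against a difference of 0.05 in RPLP2. SNORA10 inside RPS2 rose by 0.71, against 0.08 in RPS2. SNORA65 inside RPL12 rose by 0.66, against -0.23 in RPL12 (adjusted p = 0.0702). SNORD102 and SNORA27 inside RPL21 rose by 0.84 and 0.36, but RPL21 itself is not analysed here. Members of a single host also differed among themselves. Inside RPL13A, SNORD34 rose by 0.64 while SNORD32A (0.33), SNORD35A (0.22) and SNORD33 (-0.55, adjusted p = 0.193) were not called.

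Over all 76 snoRNA genes whose enclosing gene was measured (57 enclosing genes), 26 rose at 24 h. Their enclosing gene was called higher in 3 cases, lower in 8 and not called in 15, with a shared enclosing gene counted once per snoRNA gene. Of the 57 enclosing genes themselves 8 were called higher and 7 lower, near the 14.9% and 15.3% of all genes. The 3 called higher around a risen snoRNA gene were AMMECR1 (0.89) around SNORD96B, EIF5 (1.01) around SNORA28 and RAP1B (0.29) around SNORA70G. SNORA70G has close copies elsewhere and is uncertain. Of the 16 pairs in ribosomal protein genes, 11 snoRNA genes rose, and their enclosing gene was called lower for 7, higher for 0 and not called for 4. Those pairs share 10 enclosing genes, of which 4 were called lower. The median 24 h difference was 0.59 for these 16 snoRNA genes and -0.30 for their 10 enclosing genes. In 14 of the 16 pairs the snoRNA gene stood above its enclosing gene. The same order was seen in 15 of 16 pairs in A2780CP20, with medians of 0.13 and -0.26. At 48 h it was seen in 12 of 16, with medians of 0.20 and 0.0025. Across all pairs the 24 h differences were not positively related (Pearson's r = -0.11, Spearman's rho = -0.16). That is a description across genes which share arrays and, in part, enclosing genes. At 48 h the corresponding values were r = 0.31 and rho = 0.35, and in A2780CP20 they were 0.01 and 0.01.

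**Figure D4:**
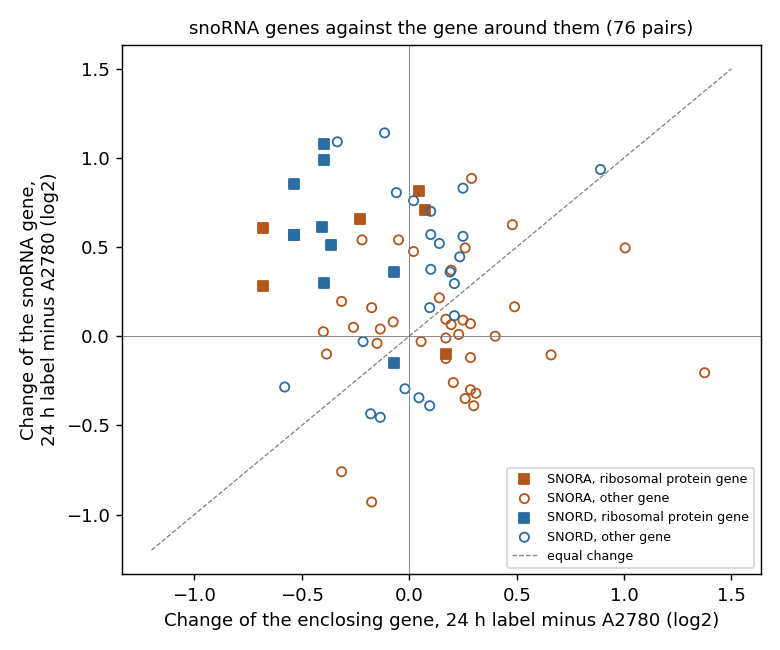
Each point is a snoRNA gene with a measured enclosing gene (76 pairs). The x axis is the difference of the enclosing gene and the y axis that of the snoRNA gene, both 24 h arrays minus untreated A2780 (log2), and the dashed line marks equal change. Filled squares are pairs in ribosomal protein genes. Of these 14 of 16 lie above the line, against 15 of 16 in A2780CP20 and 12 of 16 at 48 h (not drawn). Their median is 0.59 on the y axis, and the median of their 10 enclosing genes is -0.30 on the x axis.

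Among genes not assigned to these 2 kinds of host, several further ones rose at 24 h. The largest difference of any snoRNA gene was that of SNORA13, an H/ACA snoRNA gene on chromosome 5. It read 6.50 and 6.70 untreated, 8.05 and 8.03 at 24 h, 6.75 and 6.80 at 48 h, and 6.35 and 6.67 in A2780CP20. The 24 h arrays were more than 1 above all others, and the rise was 1.44 ± 0.12 (adjusted p = 4.69e-05), or 2.71-fold. SNORA13 lies within more than 1 annotated gene, so it was assigned to no host and is absent from the counts for noncoding genes. The antisense gene EPB41L4A-AS1, a known noncoding snoRNA host gene, fell by 0.44 at 24 h (-0.44, adjusted p = 0.00696).

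Members inside genes of translation factors, a grouping made after their values were seen, included SNORD37 inside the elongation factor gene EEF2. It read 6.01 and 5.94 untreated, 7.02 and 7.11 at 24 h, 5.97 and 6.42 at 48 h, and 6.30 and 5.88 in A2780CP20. It rose by 1.09 ± 0.17 (adjusted p = 0.00160) with no overlap between 24 h and any other array, while EEF2 differed by -0.34 (adjusted p = 0.0165). SNORD51 and SNORA41, both inside the elongation factor gene EEF1B2, rose by 0.76 and 0.48. Inside initiation factor genes SNORA28 (EIF5) rose by 0.50, while SNORA19 (EIF3A) differed by -0.04 (adjusted p = 0.909). SNORD96A and SNORD95, inside the ribosome-associated scaffold gene RACK1, rose by 1.01 and 0.62. SNORD96B, a close copy of SNORD96A elsewhere in the genome, rose by 0.94, and the array may not separate the copies.

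The 3 members inside RABGGTB, a gene for a prenyl transferase subunit, were high at both times. SNORD45A read 10.56 and 10.77 untreated, 11.04 and 11.04 at 24 h, 11.13 and 11.38 at 48 h, and 10.35 and 10.32 in A2780CP20. SNORD45B read 8.52 and 9.04 untreated, 9.55 and 9.41 at 24 h, and 9.32 and 9.68 at 48 h. SNORD45C read 7.76 and 7.83 untreated, 8.34 and 8.39 at 24 h, and 8.04 and 8.40 at 48 h. In all 3 genes every treated array lay above both untreated A2780 arrays. The 24 h differences were 0.38, 0.70 and 0.57 and were called. Those at 48 h were 0.59, 0.72 and 0.43 and were not called (adjusted p = 0.133, 0.206 and 0.284). RABGGTB differed by 0.10 at 24 h without a call.

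In NCL, the gene of nucleolin, SNORD82 rose by 0.83 at 24 h, and SNORD20 (0.56) and SNORA75 (0.09) were not called. In TBRG4 the 3 members SNORA5A (0.10), SNORA5B (-0.01) and SNORA5C (-0.13) were not called. In the imprinted clusters, SNORD116-6 read 5.11 and 5.68 untreated, 6.74 and 6.79 at 24 h, 6.10 and 5.81 at 48 h, and 6.33 and 6.74 in A2780CP20. Its rise was 1.37 ± 0.20 (adjusted p = 0.00109), and both untreated A2780 arrays were the lowest of the 8. The copies of SNORD115 and SNORD116 resemble one another closely, so the reads of single copies are uncertain. The 39 members placed inside SNHG14 gave 5 rises (12.8%, near the 14.9% of all genes) and 1 fall, and the 6 inside MEG8 gave 0 calls.

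The 7 falls at 24 h included 3 SNORA genes. SNORA22 read 8.63 and 9.01 untreated, 7.67 and 7.75 at 24 h, 9.04 and 9.41 at 48 h, and 7.33 and 8.03 in A2780CP20. It fell by 1.11 (-1.11 ± 0.23, adjusted p = 0.00640), and the 24 h and A2780CP20 arrays lay below all untreated and 48 h A2780 arrays. SNORA49 inside EP400 read 7.77 and 8.06 untreated, 7.01 and 7.30 at 24 h, and 8.23 and 7.96 at 48 h, a difference of -0.76 (adjusted p = 0.00497). SNORA2A inside KANSL2 fell by 0.35 on the log2 scale. Of the SNORD genes, SNORD56B (-0.46), SNORD94 (-0.44), SNORD59B (-0.39) and SNORD115-32 (-0.31) fell. Median centring raised every 24 h difference by 0.05. SNORA2A and SNORD56B then lost their call (adjusted p = 0.0587 and 0.0595), as did SNORD94 (adjusted p = 0.0592), and that scaling gave 3 falls and 66 rises in all.

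**Figure D5:**
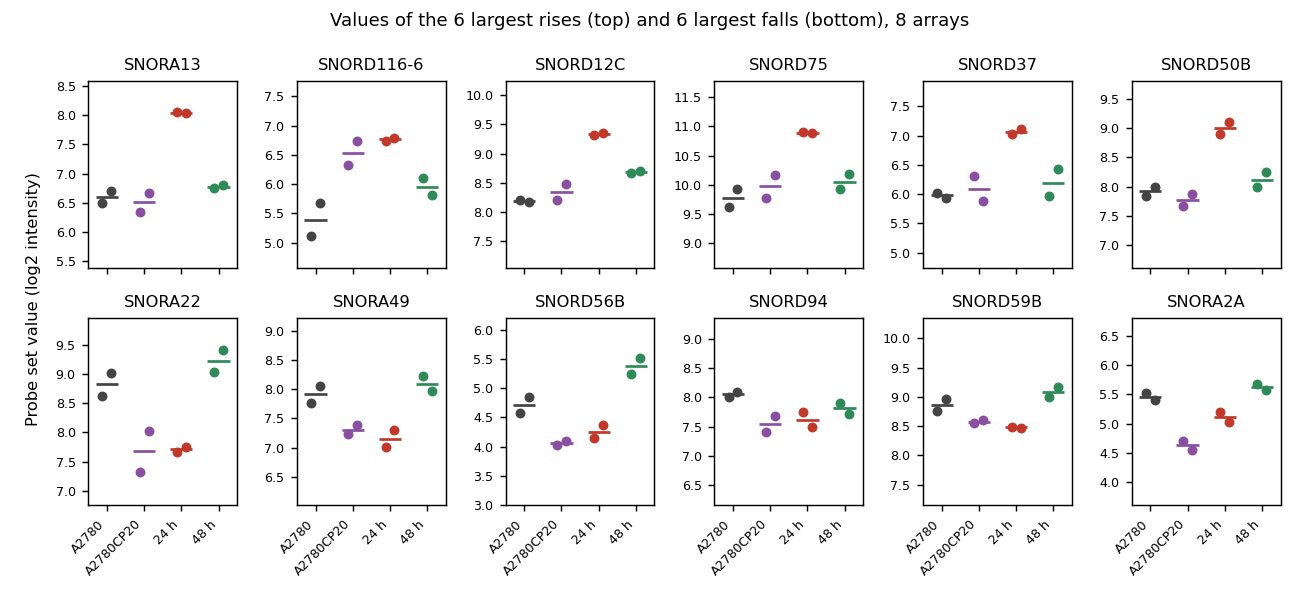
Values of the 6 largest called rises (top row) and the 6 largest called falls (bottom row) at 24 h on each of the 8 arrays (log2 intensity, y axis, each panel spanning the same range of 3.2), by group (x axis). Dots are arrays and lines are group means. In the SNORA13 panel the 24 h arrays read 8.05 and 8.03 and all others read 6.80 or less, and in the SNORA22 panel the 24 h and A2780CP20 arrays lie below the rest.

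At 48 h, 0 of 176 snoRNA genes were called in either direction by limma, where 0.179% of all genes were called (0.163% higher and 0.0163% lower). At an unadjusted p under 0.05 in the same limma fit, 33 snoRNA genes passed, of which 27 of 115 were SNORD and 6 of 61 were SNORA genes, where 2043 of 18417 genes passed. The SNORA share is near that of all genes. With an intensity trend in the variance prior 1 gene was called, SNORD45A (0.59, limma adjusted p = 0.0385). The median log2 difference was 0.19 for SNORD genes, 0.07 for SNORA genes and -0.03 for all genes. For SNORD genes outside the imprinted clusters it was 0.22, and for 40 of those 69 genes both 48 h arrays lay above both untreated arrays, against 19.6% of all genes. Over all 176 genes 62 lay above in this way and 13 below, against 27.2% of all genes below. The 2 arrays of the 48 h group were not alike in this respect. The SNORD median was 0.18 higher on replicate 2 than on replicate 1, and 87 of 115 SNORD genes read higher there. Untreated A2780 showed the same order, with a median of 0.13 and 82 of 115 genes, as did A2780CP20, with 0.11 and 72 of 115, whereas the 24 h arrays differed by a median of 0.00. Without replicate 2 of the 48 h group the SNORD median fell to 0.09, and without replicate 1 of untreated A2780 it was 0.10.

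Among the 48 h differences, that of SNORD28 inside SNHG1 was 0.90 (adjusted p = 0.177). SNORD116-18 had the smallest adjusted p, 0.104, with values of 2.77 and 2.97 untreated and 3.70 and 3.83 at 48 h, all below the lower quartile of all genes. SNORD12C differed by 0.49 (adjusted p = 0.168) and SNORD38A by 0.50 (adjusted p = 0.150).

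The difference between the treated groups was tested directly, as 48 h against 24 h. Here 33 of 176 snoRNA genes (18.8%) were called lower at 48 h and 8 (4.55%) higher, against 15.7% and 15.2% of all genes (31% in either direction). The share called lower was near that of all genes, and the share called higher was below it. Both 48 h arrays read below both 24 h arrays for 68 snoRNA genes, near the 39.6% of all genes. They read above them for 34 (19.3%), against 29.7% of all genes. Of the SNORD genes 22 (19.1%) were lower and 4 (3.48%) higher, and of the SNORA genes 11 (18%) were lower and 4 (6.56%) higher. The median difference was -0.12 for SNORD genes, -0.10 for SNORA genes and -0.06 for all genes. Within ribosomal protein genes 11 of 31 members were lower and 1 was higher (median -0.23), and within noncoding genes 8 of 23 were lower and 0 higher (median -0.26). The largest falls from 24 h to 48 h were those of SNORA13 (-1.27), SNORD116-28 (-1.01), SNORA52 (-0.94), SNORD50B (-0.89), SNORD30 (-0.88) and SNORD43 (-0.88). The largest rises were those of SNORA22 (1.52), SNORD56B (1.12) and SNORA49 (0.94). Without either of the 24 h arrays the 41 calls fell to 25 or 26.

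A2780CP20 differed from A2780 in fewer snoRNA genes. Of the 176 genes 6 (3.41%) were higher and 12 (6.82%) lower in the subline, where 18.4% of all genes were called, 6.37% higher and 12% lower. Both shares lie below those of all genes. Both arrays of the subline read above both A2780 arrays for 30 snoRNA genes and below them for 45, against 28.3% and 27% of all genes. SNORA and SNORD genes each had 3 higher and 6 lower, and the medians were -0.08 and -0.03 against 0.03 for all genes. Under median centring the SNORA split was 1 higher and 6 lower, and under quantile normalization 4 and 6. The count rested on single arrays. It was 3 without replicate 2 of untreated A2780 and 10 without replicate 1. It was 33 (6 higher, 27 lower) without replicate 2 of A2780CP20, and without its replicate 1 the split turned to 14 higher and 6 lower. Without the arrays labelled 24 h, 12 genes were called (3 higher, 9 lower), and with only the compared groups 5 were.

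The falls in A2780CP20 were led by SNORA22, whose values are given above, with a difference of -1.14 (limma adjusted p = 0.0123). SNORA2A read 5.52 and 5.40 in A2780 and 4.71 and 4.55 in A2780CP20, the lowest of the 8 arrays, and differed by -0.83 (adjusted p = 0.00283). SNORA23 inside IPO7 read 8.03 and 8.12 in A2780 and 6.97 and 7.56 in A2780CP20 (-0.81). Further falls were SNORD116-21 (-1.01), SNORD116-25 (-0.85), SNORD56B (-0.66), SNORD61 (-0.65), SNORA20 (-0.63), SNORA49 (-0.61), SNORD94 (-0.51), SNORD54 (-0.48) and SNORA37 (-0.44).

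The rises in A2780CP20 were SNORD116-6 (1.14), SNORD36B (0.57), SNORD105 (0.53), SNORA10 (0.52), SNORA71A (0.41) and SNORA55 (0.34). SNORA10 read 9.16 and 9.09 in untreated A2780, 9.78 and 9.89 at 24 h, 9.05 and 9.07 at 48 h, and 9.77 and 9.51 in A2780CP20. Its A2780CP20 and 24 h arrays lay above all others, and RPS2 around it differed by -0.02 in the subline. SNORD116-21 and SNORD116-25, SNORA55, SNORA71A and SNORD36B lost their call without the arrays labelled 24 h (adjusted p from 0.0501 to 0.0841). SNORA55 and SNORD116-25 also lost it when the replicate numbers were fitted as a block (limma adjusted p = 0.0527 and 0.0561). SNORA71 genes form a family of close copies, so SNORA71A is uncertain.

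Several box C/D snoRNAs serve as reference genes in PCR of small RNAs, and 6 of 9 commonly used ones were measured. At 24 h 4 of them rose, where 14.9% of all genes rose. They were SNORD43 (1.08), SNORD96A (1.01), SNORD49A (0.81) and SNORD95 (0.62). SNORD96A read 8.29 and 8.31 untreated, 9.34 and 9.28 at 24 h, 8.44 and 8.76 at 48 h, and 8.59 and 8.49 in A2780CP20. SNORD95 read 10.76 and 10.82 untreated, 11.42 and 11.39 at 24 h, 10.69 and 10.81 at 48 h, and 10.81 and 11.33 in A2780CP20. SNORD44 (0.51, adjusted p = 0.0517) and SNORD38B (0.66, adjusted p = 0.0522) were just outside the threshold. Median centring brought both within it, but most of the alternative runs did not. Over those runs the difference ran from 0.42 to 0.56 for SNORD44 and from 0.325 to 0.995 for SNORD38B. SNORD95 did not keep its call in every run. In the subline 0 of these 6 were called, with differences from -0.34 to 0.28, where 18.4% of all genes were called. At 48 h 0 of these 6 were called, with differences from -0.04 to 0.56, where only 0.179% of all genes were called. Of 7 snoRNAs listed for ribosomal RNA processing only SNORD13, which helps direct acetylation of the small-subunit RNA, was measured. It read 9.77 and 10.22 untreated and 10.32 and 10.87 at 24 h, which did not overlap, and its difference of 0.60 was not called (adjusted p = 0.149).

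Genes of the snoRNA-carrying proteins and of the factors that assemble the particles were read from the same fit. Of the box C/D core, FBL (fibrillarin) differed by 0.28 at 24 h (adjusted p = 0.144) and NOP58 by 0.25 (adjusted p = 0.0699), and neither was called. Of the 4 H/ACA proteins GAR1 read 9.44 and 9.46 untreated and 10.04 and 10.04 at 24 h and rose by 0.59 (adjusted p = 0.00861). DKC1 (dyskerin, 0.23), NHP2 (0.23) and NOP10 (-0.03) were not called. Of 14 assembly and trafficking genes 6 rose and 1 fell at 24 h, where 14.9% of all genes rose and 15.3% fell, and their median was 0.37 against 0.01 for all genes. RUVBL2, an ATPase of the assembly complex, read 10.56 and 10.56 untreated, 11.33 and 11.34 at 24 h, and 10.54 and 10.54 at 48 h, a rise of 0.78. RUVBL1 (0.52), TCOF1 (0.55), SHQ1 (0.47), NUFIP1 (0.45) and NOLC1 (0.34) rose, and COIL, the Cajal body scaffold coilin, fell by 0.34 on the log2 scale. In A2780CP20 1 of the 14 assembly and trafficking genes rose (TCOF1) and 2 fell (ZNHIT6 and PHAX). These shares (7.14% and 14.3%) are near the 6.37% and 12% of all genes. At 48 h 0 of the 20 core protein, assembly and trafficking genes were called, where 0.179% of all genes were.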

How the data were processed

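The deposited log2 values of the authors (1.8 to 14.99, 2 decimals) were used as given. The submitters' processing notes name Partek. The handling of background, normalization and probe summary is not given in those sources. The log2 scale was read from the range. Of 33297 probe sets, 19460 had 1 symbol, 1754 several and 12083 were unnamed here. Of the 18417 genes, 18389 matched RefSeq (GRCh38.p14), which gave chromosomes and enclosing genes. The tables give no strand for snoRNA genes, so strand was not used to find the enclosing gene, unlike the design. Box C motifs were not searched, as no snoRNA sequence was in the tables used.

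limma 3.58.1 in R 4.3.3 fitted 1 coefficient per group to all 8 arrays (residual degrees of freedom 4, prior 4.48) with two-sided p-values adjusted by the Benjamini-Hochberg method across all 18417 genes. The fit was tested on simulated data. The number of arrays limits the precision. Each probe set's values were compared only with themselves, and levels of different genes are not comparable.

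Groups came from sample titles. Deviations of same-numbered replicates correlated above 0.1 between untreated A2780, A2780CP20 and 48 h (0.117 to 0.181 over all genes) but not with 24 h (0.00202 to 0.0387). Over snoRNA genes the correlations ran from -0.177 to 0.226. Since not every pair of groups exceeded 0.1, the numbers were not treated as pairs. The members and the gene lists were chosen with earlier results of these data known. Named were, per comparison, up to 6 called rises and 6 called falls without overlap, the PCR-reference and rRNA-processing snoRNAs, members of hosts with at least 3 members, and snoRNA-protein genes; others were named after their values were seen. A host gene that this rule takes is not reported here. Alternatives were quantile normalization, median centring, leaving out the dimmest 25% of genes, averaged probe sets, an intensity trend, a replicate block, fewer groups and each array left out.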

Additional observations from a re-analysis of the deposited data

Results flagged for a closer look

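For 19 named snoRNA genes the change from untreated A2780 differed between the 24 h and 48 h labels, by the limma test of 48 h against 24 h (adjusted p under 0.05). Genes were named in part for being the largest called changes in this same comparison or at 24 h. The number 19 is therefore no measure of how common such differences are. In this comparison 41 of all 176 snoRNA genes were called, where 31% of all genes were. Lower at 48 h than at 24 h were SNORA13 (-1.27, log2), SNORD116-28 (-1.01), SNORA52 (-0.94), SNORD50B (-0.89), SNORD30 (-0.88), SNORD43 (-0.88), SNORD37 (-0.87), SNORD75 (-0.84), SNORD116-6 (-0.81), SNORD96A (-0.71), SNORD95 (-0.66), SNORD12C (-0.65) and SNORD49A (-0.54). Higher at 48 h were SNORA22 (1.52), SNORD56B (1.12), SNORA49 (0.94), SNORD41 (0.69), SNORD59B (0.61) and SNORA2A (0.52). SNORD41, inside TNPO2, read 8.29 and 8.41 at 24 h and 9.01 and 9.07 at 48 h, and was called in neither comparison with untreated A2780. The arrays labelled 24 h also stood apart over all genes.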

How the results depend on the processing

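Of 63 named gene results 43 were called, and 23 of these stayed called in every alternative run. Of 963 recomputed values 852 kept their side of the threshold, 98 lost the call and 13 gained it. The sign changed in 8 values, which belong to 5 results that were not called, and in 0 values of called results. With each array left out, the snoRNA calls ran from 3 to 33 for A2780CP20, 34 to 77 at 24 h, 0 to 0 at 48 h and 25 to 55 for 48 h against 24 h. With only the compared groups, 5 snoRNA genes were called for A2780CP20. At 48 h the intensity trend gave 1 call. The SNORA median at 24 h was 0.15 after quantile normalization, and the SNORD median was 0.46 without the dimmest 25% of genes. With each array left out, the SNORA median ran from -0.16 to 0 for A2780CP20, 0.08 to 0.12 at 24 h, 0 to 0.12 at 48 h and -0.15 to -0.07 for 48 h against 24 h. The SNORD median ran from -0.10 to 0.02 for A2780CP20, 0.21 to 0.36 at 24 h, 0.085 to 0.25 at 48 h and -0.175 to -0.025 for 48 h against 24 h. The replicate numbers are shared by the groups, and with them as a replicate block the calls were 22, 71, 0 and 45 for the 4 comparisons, against 18, 62, 0 and 41 without it. With the block SNORA55 (adjusted p = 0.0527) and SNORD116-25 (adjusted p = 0.0561) lost their calls in A2780CP20, and SNORD38B (adjusted p = 0.0466) gained one at 24 h. The box C motif search was not run. No background level of the arrays was measured here.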

Other observations

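Small Cajal body RNAs (SCARNA genes), which guide modification of spliceosomal RNAs and share proteins with snoRNAs, were measured for 16 genes outside the SNORA and SNORD symbols. In A2780CP20 5 of them fell and 0 rose, where 12% of all genes fell and 6.37% rose, and the median log2 difference was -0.31 against 0.03 for all genes. SCARNA9 read 10.21 and 10.33 in A2780 and 9.41 and 9.04 in A2780CP20, a difference of -1.05 (limma). SCARNA10 (-1.02), SCARNA7 (-0.88), SCARNA17 (-0.51) and SCARNA5 (-0.48) also fell. At 24 h the median was -0.02, with 1 rise and 1 fall, where 14.9% of all genes rose and 15.3% fell. SCARNA9L read 9.21 and 9.34 untreated, 10.89 and 10.93 at 24 h, and 9.88 and 10.25 at 48 h, a rise of 1.64 ± 0.16 at 24 h (limma adjusted p = 1.15e-04). SCARNA9 differed there by 0.38 without a call (adjusted p = 0.137). SCARNA10 fell by 0.86 on the log2 scale. At 48 h 0 of the 16 were called by limma, where 0.179% of all genes were called. At an unadjusted p under 0.05 in the same fit 3 of the 16 passed, where 2043 of 18417 genes passed.

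ODC1, the gene of ornithine decarboxylase, rose by 1.38 at 24 h, while SNORA80B within it read 8.12 and 7.74 untreated and 7.86 and 7.59 at 24 h, a difference of -0.21 that was not called.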
